A study of Mus musculus with 3 samples.

Results

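The cells described here are inflammatory monocytes of the mouse liver with few MHC class II transcripts, 710 of 20950 filtered cells in 3 droplet single-cell RNA libraries. Members were chosen by measured UMI counts of the genes named here, so those genes are described and not tested. A cell was a member if it held at least 2 UMIs (unique molecular identifiers, each a counted transcript) of Ly6c2, at least 10 of Lyz2 and at least 3 of Csf1r, Ccr2 and Fn1 together. It also had to hold fewer than 10 UMIs of H2-Aa, H2-Ab1 and H2-Eb1 together, at most 1 of Treml4 and Ace, none of Clec4f, Vsig4 or Siglech, and under 5% of its UMIs from S100a8 and S100a9. The members numbered 48 in the library labelled FL_control, 261 in the library labelled FL_IR and 401 in the library labelled dHep_IR. FL_control came from the liver of floxed Gsdmd mice without irradiation, FL_IR from floxed Gsdmd mice irradiated with 30 Gy and taken on day 7, and dHep_IR from mice lacking Gsdmd in hepatocytes, irradiated in the same way. The genotype tag of both floxed libraries reads WT, and that of dHep_IR names a knockout without naming a cell type. The Cre driver, strain, age, number of pooled animals and irradiated part of the body are not given in the sources used here. With 1 library in each group there is no spread between animals, no test between groups was possible and no p-value is given. The 3 comparisons share libraries, so their values are not independent of each other.

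Classical Ly6C-high monocytes leave the bone marrow through the chemokine receptor CCR2, enter injured liver and can turn into macrophages or, with rising MHC class II, into cells that present antigen. Nonclassical monocytes patrol the vessels and express little Ly6C, and Kupffer cells are the resident macrophages of the liver sinusoids. Some monocytes made under stress carry transcripts of neutrophil granules, while interferons switch on a shared set of antiviral and antigen presentation genes in nearly every myeloid cell.

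The threshold on MHC class II divided few cells. H2-Aa, H2-Ab1 and H2-Eb1 encode the chains of the class II molecule, and 28 of the 48 members in FL_control, 258 of 261 in FL_IR and 344 of 401 in dHep_IR held no UMI of them. Between 5 and 9 UMIs, just inside the threshold, stood 0, 0 and 4 members. Just outside, between 10 and 14 UMIs, stood 1, 0 and 0 cells that met every other threshold. The cells at 10 UMIs or more numbered 14, 3 and 14, which was too few for a comparison of MHC class II low with high monocytes.

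**Figure D1:**
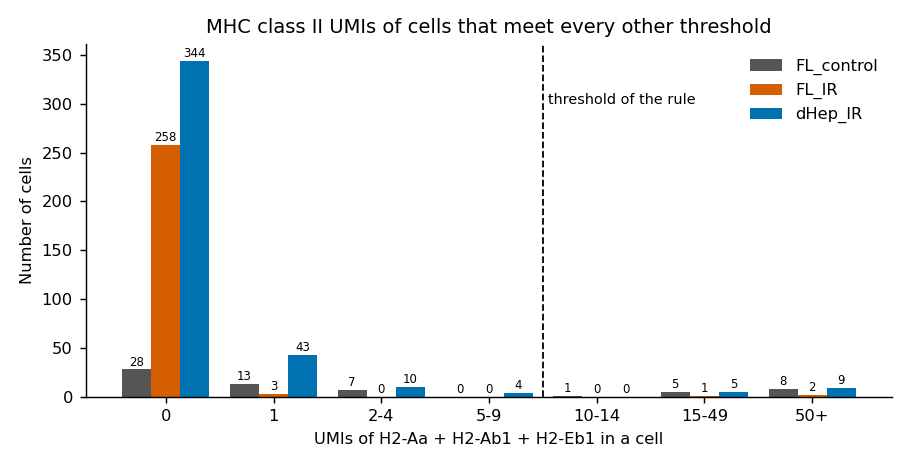
Number of cells (vertical axis) by their UMIs of H2-Aa, H2-Ab1 and H2-Eb1 together (horizontal axis, in unequal bins) among cells that meet every other threshold, for the 3 libraries. Most cells sit at 0 UMIs, with 28, 258 and 344 cells, and the bins beside the dashed threshold hold 4 cells or fewer.

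Other thresholds cut through a range of cells. Leaving out the term on Ly6c2, which encodes the surface protein that marks classical monocytes, added 44 cells in FL_control, 149 in FL_IR and 185 in dHep_IR. In FL_control the 41 added cells without a UMI of Ly6c2 held 4128 CPM (summed UMIs of a gene scaled to the summed UMIs of all genes) of C1qa, a complement subunit of mature macrophages, and 76.6 CPM of Chil3. The irradiated libraries were unlike this. The 87 such cells of FL_IR held 166 CPM of C1qa and 22902 of Chil3, and the 127 of dHep_IR held 217 and 14332 CPM. Both genes stood there above their level in the members of the same library. Leaving out the term on S100a8 and S100a9, the calprotectin subunits abundant in neutrophils, added 0, 30 and 168 cells. The share of filtered cells was 0.725% in FL_control (95% exact Clopper-Pearson interval 0.535 to 0.960), 3.85% in FL_IR (3.40 to 4.34) and 5.31% in dHep_IR (4.81 to 5.84). With S100a8 and S100a9 under 1% of UMIs the shares were 0.725%, 2.98% and 3.05%, so that the irradiated libraries lay close together, and with every cell thinned to 3000 UMIs they were 1.02%, 1.81% and 3.15%. FL_IR with at least 4 UMIs of Ly6c2 had 2.57%. These shares are a description, since the rule reads genes whose levels differ between the libraries.

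The libraries held 52858425 to 78694038 UMIs over 7265 to 8214 barcodes. Members were deep cells, with median depths of 11342.5, 12258 and 15999 UMIs in FL_control, FL_IR and dHep_IR. Their summed UMIs were 592604, 3328740 and 6612367. Intervals cover counting error only, and the small sum in FL_control makes its levels the least precise. Pairs of libraries shared 10 to 60 cell barcodes, of which none was shared by members of both. Endothelial RNA was uneven: the 10 endothelial list genes took at least 0.3% of the UMIs in 3 of 48 members of FL_control, 7 of 261 of FL_IR and 12 of 401 of dHep_IR. Pooled over members their share was 0.173%, 0.0292% and 0.0294%. In the same order the 25 hepatocyte list genes took 0.0619%, 0.0674% and 0.0284%, with Alb at 48.9, 113 and 18.5 CPM.

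Gsdmd, the pore-forming effector of pyroptosis that the study deleted in hepatocytes, was measured in the monocytes of every library. FL_control held 39 UMIs of it (65.8 CPM), FL_IR 23 UMIs (6.91 CPM) and dHep_IR 273 UMIs (41.3 CPM). The lowest level was thus in a library labelled as floxed and tagged WT, which goes against that label as far as it speaks for intact Gsdmd. With the deletion labelled in hepatocytes, low Gsdmd in monocytes follows from the label of neither irradiated library. Whether a label is wrong was not tested. The same order held in the other populations read from these libraries: Kupffer cells had 55.1, 8.58 and 35.7 CPM of Gsdmd and neutrophils 87.7, 6.46 and 35.8 CPM. Library names therefore mean "the library labelled" with that name throughout. Of 16 genes of the pyroptosis list tested between FL_IR and FL_control, Gsdmd and Il18 were more than 2-fold lower in FL_IR and Naip6 was more than 2-fold higher.

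Markers of classical monocytes were present in all 3 libraries. The rule genes, given as a description, were Ly6c2 at 1598, 528 and 874 CPM, Ccr2 at 898, 904 and 696 CPM, and Fn1, the matrix protein fibronectin, at 1426, 4804 and 2912 CPM, with values here and below ordered as FL_control, FL_IR, dHep_IR. Lyz2, which encodes lysozyme, fell in that order from 24951 through 11837 to 6114 CPM. Chil3, a chitinase-like protein of classical monocytes that the rule did not read, stood at 2445, 21729 and 11029 CPM, against 16.6, 343 and 391 CPM in Kupffer cells. Clec4f and Vsig4, which define Kupffer cells, were at 0 by the rule, and Cd5l, a further Kupffer gene, was at 10.1, 5.11 and 3.63 CPM. The 12 genes of the Kupffer list together went another way, at 155, 97.6 and 356 CPM. From FL_IR to dHep_IR, 3 of 6 tested genes of that list were more than 2-fold higher and 0 lower, with a median log2 ratio of 1.74. Of all genes tested in that step, 3.15% were higher.

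FL_IR against FL_control differs by irradiation, as labelled. The same 2 libraries also differ in Gsdmd, at 6.91 and 65.8 CPM, and in these values irradiation and whatever goes with that difference cannot be told apart. Among 6312 genes tested, 453 were more than 2-fold higher in FL_IR (7.18%) and 563 more than 2-fold lower (8.92%), and the median log2 ratio was -0.07. A gene was tested if it had at least 50 UMIs over both libraries and a UMI in at least 10% of the members of 1 of them. The 7.18% and 8.92% are the shares to set beside each list count of this comparison. Scaling by TMM factors changed the split to 675 higher and 361 lower and the median to 0.17.

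Of the 15 tested genes of a list of granule and early myeloid genes, 11 were more than 2-fold higher in FL_IR than in FL_control and none lower, with a median log2 ratio of 3.15 (all genes tested: -0.07). Saa3, an acute phase serum amyloid, was at 45.6, 2773 and 9950 CPM, with a 95% interval of 30.0 to 66.3 for the first. The 27 UMIs of Saa3 in FL_control came from 3 cells. Lcn2, lipocalin 2, which withholds iron from bacteria, stood at 20.2, 2441 and 2348 CPM. Mmp8, the neutrophil collagenase, was at 72.6, 1714 and 1440 CPM, a ratio of FL_IR to FL_control of 23.6 (17.5 to 32.7). Prtn3, the granule protease proteinase 3, was at 45.6, 401 and 313 CPM. For Saa3, Lcn2, Mmp8 and Prtn3 both irradiated libraries lay above FL_control. Wfdc21 was at 8.44, 1251 and 1680 CPM. Lrg1, a secreted glycoprotein outside the lists, had no UMI in FL_control and 346 CPM in FL_IR. With FL_control set to 3 UMIs that was at least 68.3-fold higher. The granule and early myeloid list was also higher in other populations of FL_IR. Nonclassical monocytes had 9 of 10 tested higher and 0 lower, with a median of 4.89 (all genes: 7.05% higher). Neutrophils had 13 of 19 higher and 1 lower, with a median of 2.69 (12.7%). Kupffer cells had 6 of 13 higher and 3 lower, with a median of 0.79 (5.5%).

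Genes of granule formation in neutrophil precursors did not go together. Prtn3 belongs to them and was seen in 8.33%, 60.2% and 52.1% of thinned members, while Elane, Mpo, Ctsg, Camp and Ltf did not reach the count for testing. Ngp, neutrophilic granule protein, was at 1.69, 23.1 and 30.9 CPM. Neutrophils of the same libraries held 11062 CPM of Ngp in FL_IR and 19345 in dHep_IR. In the monocytes of FL_IR there were 106 UMIs of Lcn2 and 74.1 of Mmp8 for each UMI of Ngp, against 1.06 and 0.206 in neutrophils and 2.57 and 0.770 in Kupffer cells. In dHep_IR the same ratios were 76.1 and 46.7 in monocytes, 0.753 and 0.112 in neutrophils and 3.96 and 1.10 in Kupffer cells. Camp, another granule gene, had 0.208 UMIs per UMI of Ngp in the monocytes and 0.260 in the neutrophils of FL_IR. In dHep_IR it had 0.098 in the monocytes and 0.259 in the neutrophils. The monocyte values rest on 16 UMIs of Camp in FL_IR and 20 in dHep_IR. All monocyte ratios to Ngp depend on the rule, which left out cells with much S100a8 and S100a9. Among cells meeting every other threshold, 23 in FL_IR and 122 in dHep_IR held 7% or more of these. Ngp stood there at 2637 and 3391 CPM, so the low Ngp of the members is partly set by the rule.

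The promoters of Saa3, Lcn2 and Mmp8 are shown as examples from this list that hold the letters of a C/EBP site. They were picked for that match, and the promoter of Prtn3 holds none. C/EBP factors drive myeloid and acute phase genes. The letters searched were TTGCNNAA on both strands of the RefSeq promoter (GRCm38.p6, 250 bases before to 50 after the start), and capitals mark the match. Each line gives the 250 bases before the start, on the strand of the gene.
Saa3 promoter, chr7:46715677-46715926, minus strand: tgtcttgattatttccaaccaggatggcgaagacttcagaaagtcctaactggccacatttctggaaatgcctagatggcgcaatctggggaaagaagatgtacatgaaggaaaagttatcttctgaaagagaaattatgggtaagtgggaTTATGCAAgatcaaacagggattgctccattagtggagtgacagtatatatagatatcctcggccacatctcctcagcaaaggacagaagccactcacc
Lcn2 promoter, chr2:32387740-32387989, minus strand: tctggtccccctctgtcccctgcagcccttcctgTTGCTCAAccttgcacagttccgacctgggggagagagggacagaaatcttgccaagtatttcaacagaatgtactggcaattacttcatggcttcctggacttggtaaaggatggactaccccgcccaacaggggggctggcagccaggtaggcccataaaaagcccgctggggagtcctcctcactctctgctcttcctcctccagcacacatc
Mmp8 promoter, chr9:7558179-7558428, plus strand: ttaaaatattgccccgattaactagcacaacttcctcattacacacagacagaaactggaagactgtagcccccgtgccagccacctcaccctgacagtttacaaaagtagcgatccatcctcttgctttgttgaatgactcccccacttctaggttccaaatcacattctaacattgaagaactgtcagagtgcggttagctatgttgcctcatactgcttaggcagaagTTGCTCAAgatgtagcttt
The matches begin 99, 216 and 19 bases before the start. Of the granule and early myeloid list, 22 genes matched a promoter and 11 of them held the letters (50%), against 3298 of 27025 genes in all (12.2%). A match is a description of the sequence, not a measured binding site.

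The metallothionein and acute phase list had 7 of 13 tested genes more than 2-fold higher in FL_IR and none lower, with a median log2 ratio of 1.04. It shares Saa3 and Lcn2 with the list above. Mt1 and Mt2, which bind zinc and copper, were at 148, 2446 and 2354 CPM and at 8.44, 225 and 326 CPM. Slc39a14, a zinc and iron importer, was at 3.37, 42.7 and 41.0 CPM. Hp, which encodes haptoglobin, was at 780, 1606 and 1790 CPM. In nonclassical monocytes 8 of 9 tested genes of this list were higher in FL_IR and 0 lower. Kupffer cells had 8 of 15 higher and 1 lower, and neutrophils 3 of 14 higher and 1 lower. The shares of all genes higher in these populations were 7.05%, 5.5% and 12.7%.

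Glucocorticoid response and repair genes were split, with 8 of 18 tested higher, 4 lower and a median of 0.27. Il1r2, the decoy receptor that binds interleukin 1 without signalling, had 2 UMIs in FL_control (3.37 CPM) and stood at 1007 CPM in FL_IR and 1108 in dHep_IR. After each cell was thinned to 3000 UMIs it was seen in 0%, 88.9% and 90.5% of members. Fkbp5, a co-chaperone induced through the glucocorticoid receptor, was at 18.6, 264 and 180 CPM. Thbs1, the adhesive matrix protein thrombospondin 1, was at 673, 4470 and 2547 CPM, and 1 cell gave 31.6% of its UMIs in FL_control. Mrc1, the mannose receptor, went the other way at 142, 16.2 and 30.7 CPM, and 5 cells gave 89.3% of its UMIs in FL_control.

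Among 24 tested receptors of migration, 7 were more than 2-fold higher in FL_IR and 5 lower, with a median log2 ratio of 0.00. Ccr1, a receptor of inflammatory chemokines, was at 89.4, 564 and 361 CPM. Fpr2, a receptor of formyl peptides and serum amyloid, was at 11.8, 182 and 104 CPM. Itgam, the integrin chain CD11b, was at 248, 692 and 631 CPM. Cx3cr1, the fractalkine receptor of patrolling monocytes, was at 142, 2.40 and 2.27 CPM. It was seen in 37.5%, 0.383% and 0.998% of thinned members.

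**Figure D2:**
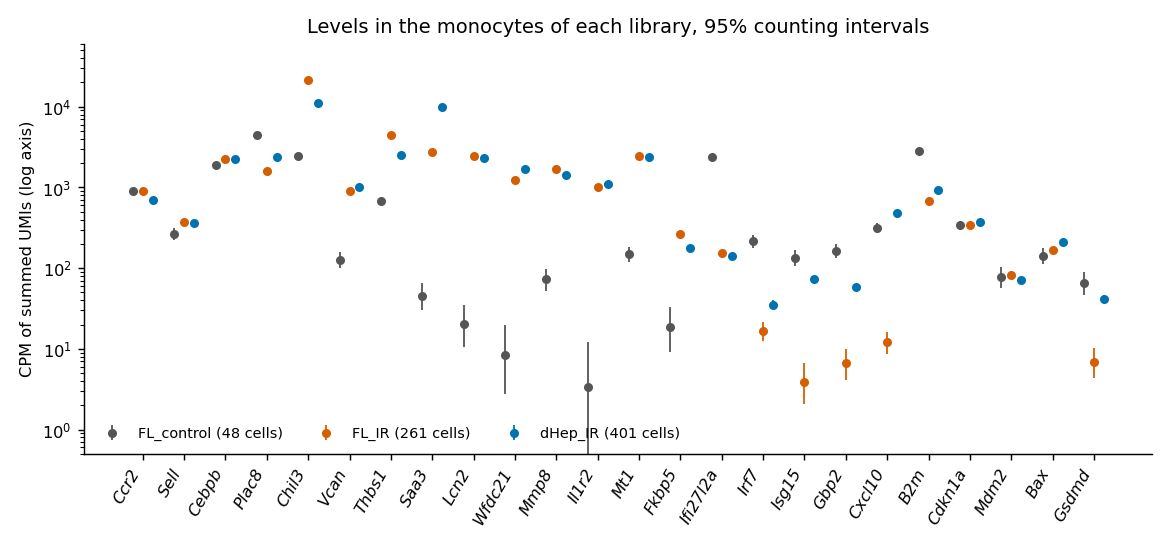
CPM of summed UMIs (vertical log axis) of 24 genes in the monocytes of FL_control, FL_IR and dHep_IR, with 95% exact Poisson intervals that cover counting error only. Saa3, Lcn2, Wfdc21, Mmp8 and Il1r2 lie under 80 CPM in FL_control and above 1000 CPM in both irradiated libraries, while Isg15 and Cxcl10 are lowest in FL_IR at 3.91 and 12.02 CPM.

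Interferon-stimulated genes were lower in FL_IR. Of 36 tested genes of that list, 31 were more than 2-fold lower and none higher, with a median log2 ratio of -2.27. Ifi27l2a, an interferon-induced mitochondrial protein, was at 2396, 153 and 141 CPM. Irf7, the transcription factor that amplifies the type I response, was at 216, 16.5 and 35.2 CPM. Bst2, the antiviral tether, was at 440, 53.5 and 83.6 CPM. Isg15, a ubiquitin-like protein, was at 133, 3.91 and 72.4 CPM, and was 34.1-fold lower in FL_IR than in FL_control. FL_control was the highest of the 3 libraries for Ifi27l2a, Irf7, Bst2 and Isg15. The lower levels in FL_IR were not particular to these monocytes. In Kupffer cells 39 of 50 tested genes of the list were lower and 1 higher, with a median of -1.75 (all genes: 7.26% lower). In neutrophils 34 of 38 were lower and 0 higher, with a median of -2.25 (all genes: 22% lower).

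The list for interferon gamma had 16 of 20 tested genes more than 2-fold lower and 2 higher, with a median of -1.74. Gbp2, a guanylate-binding protein of cell-autonomous defence, was at 165, 6.61 and 58.1 CPM. Cxcl9, a chemokine that draws T cells, was at 238, 0 and 49.8 CPM, but in FL_control 5 cells held it and 1 cell gave 83.0% of its UMIs. MHC class I genes had 9 of 14 tested more than 2-fold lower and none higher, with a median of -1.21. B2m, the light chain of class I, had 2843 CPM without irradiation (95% interval 2709 to 2982), 682 CPM in FL_IR (654 to 710) and 939 CPM in dHep_IR (915 to 962). H2-K1, a class I heavy chain, was at 1107, 391 and 438 CPM. Reads of class I genes can be split between near-identical copies, so values of H2-Q7 and its neighbours are uncertain.

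The lower interferon signal was spread over cells. Over 51 genes of the interferon-stimulated list, members thinned to 3000 UMIs held from 6 to 119 UMIs in FL_control with a median of 23. In FL_IR they held from 1 to 33 with a median of 5, and in dHep_IR from 0 to 84 with a median of 6. Below the median of FL_control lay 99.6% of members in FL_IR and 96.5% in dHep_IR, and the ranges overlapped. For MHC class I the medians were 23, 9 and 12 UMIs. For the granule and early myeloid list without Chil3 they were 2.5, 29 and 43 UMIs, with maxima of 6, 105 and 255.

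**Figure D3:**
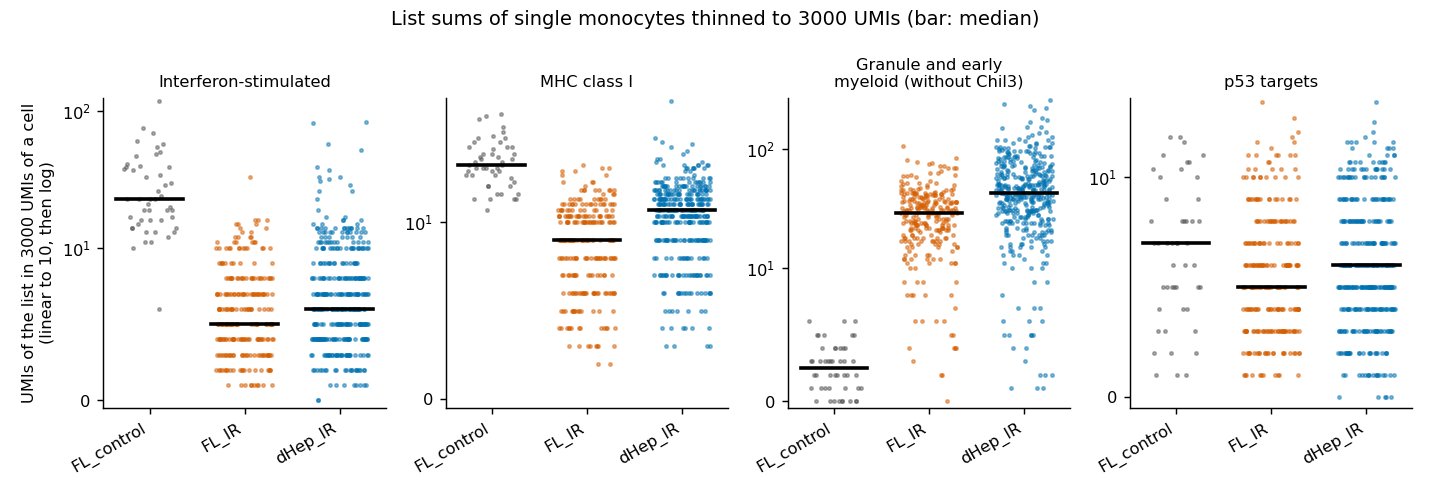
UMIs of 4 gene lists in single monocytes thinned to 3000 UMIs (vertical axis, linear to 10 and then log), by library, 1 point per cell and a bar at the median. The interferon-stimulated medians are 23, 5 and 6 UMIs, the granule and early myeloid medians 2.5, 29 and 43, and the p53 target medians 7, 5 and 6.

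The promoters of Cxcl10, Isg15 and Rsad2 are shown because they carry the core of the interferon-stimulated response element, which binds the interferon-activated factor ISGF3 and interferon regulatory factors. The letters searched were GAAA, any 2 bases and GAAA again, on both strands. Capitals mark the match, and source, build and strand are as above.
Cxcl10 promoter, chr5:92348890-92349139, minus strand: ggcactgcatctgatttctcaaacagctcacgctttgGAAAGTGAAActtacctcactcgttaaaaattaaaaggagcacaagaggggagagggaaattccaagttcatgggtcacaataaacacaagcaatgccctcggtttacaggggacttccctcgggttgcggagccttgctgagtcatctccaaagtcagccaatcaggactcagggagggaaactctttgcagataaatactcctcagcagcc
Isg15 promoter, chr4:156200819-156201068, minus strand: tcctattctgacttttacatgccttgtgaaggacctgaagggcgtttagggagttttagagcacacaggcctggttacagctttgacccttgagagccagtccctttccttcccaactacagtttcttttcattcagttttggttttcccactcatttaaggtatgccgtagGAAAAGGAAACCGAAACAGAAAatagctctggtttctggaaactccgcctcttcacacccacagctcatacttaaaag
Rsad2 promoter, chr12:26456453-26456702, minus strand: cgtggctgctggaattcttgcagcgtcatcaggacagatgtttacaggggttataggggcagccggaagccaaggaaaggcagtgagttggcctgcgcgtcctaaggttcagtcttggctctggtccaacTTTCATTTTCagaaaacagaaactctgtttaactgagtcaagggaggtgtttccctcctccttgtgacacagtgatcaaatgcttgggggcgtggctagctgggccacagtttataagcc
Isg15 has 3 matches that overlap. Of the interferon-stimulated list, 39 genes matched a promoter and 21 held the letters (53.8%), against 1079 of 27025 genes in all (3.99%). For the interferon gamma list it was 13 of 26 (50%). The promoter of Saa3 printed above also holds this core, in lower case there.

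p53 targets, which many cells switch on after DNA damage, went both ways between FL_IR and FL_control in these monocytes. Of 16 tested, 1 was more than 2-fold higher and 4 were lower, with a median log2 ratio of 0.01. Cdkn1a, the cell cycle inhibitor p21, was at 339, 346 and 375 CPM, a ratio of FL_IR to FL_control of 1.02 (0.878 to 1.19). Mdm2, the p53 ligase, was at 77.6, 82.6 and 70.8 CPM. Among those lower in FL_IR, Plk2, a stress-induced kinase, was at 140, 29.4 and 49.9 CPM and Pmaip1, the cell death protein NOXA, at 218, 96.1 and 108 CPM. Kupffer cells of the same libraries had 12 of 23 tested p53 targets more than 2-fold higher in FL_IR and none lower, with a median of 1.01, and Cdkn1a at 50.2, 847 and 671 CPM. Of all 9377 genes tested in Kupffer cells, with at least 50 UMIs over both libraries and no minimum share of cells, 5.5% were higher and 7.26% lower, with a median of 0.0088.

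Other classical monocyte genes had 8 of 30 tested more than 2-fold higher and 6 lower, with a median of 0.14. Vcan, the matrix proteoglycan versican, was at 127, 907 and 1013 CPM, with 37.3% of its UMIs in FL_control from 1 cell. Plac8 went the other way at 4414, 1598 and 2376 CPM. Macrophage maturation genes had 3 of 23 higher and 9 lower. Several of their levels in FL_control rested on 1 cell, which gave 100% of the UMIs of Spp1, 96.6% of those of Gpnmb and 80.5% of those of Fabp5. Endothelial genes had 10 of 12 tested lower, and their median moved from -2.22 to 0.05 when members with endothelial or lymphoid RNA were left out.

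Inflammatory genes went both ways between FL_IR and FL_control. Of 17 tested inflammatory cytokine genes 6 were more than 2-fold higher and 3 lower, with a median log2 ratio of -0.17. Il1b was at 904, 802 and 1185 CPM, and Tnf, the cytokine tumour necrosis factor, at 118, 50.2 and 74.0 CPM. Chemokines had 0 of 10 higher and 3 lower, with Ccl2, the ligand of CCR2, at 672, 789 and 507 CPM. Feedback genes of NF-kB had 1 of 21 higher and 7 lower, with a median of -0.63. From FL_IR to dHep_IR these lists had 4 of 20 higher and 2 lower, 5 of 12 higher and 0 lower, and 6 of 22 higher and 0 lower. Over all genes the shares were 7.18% higher and 8.92% lower in the first step, and 3.15% and 2.04% in the second.

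Pattern recognition genes had 4 of 18 tested more than 2-fold higher in FL_IR than in FL_control and 2 lower, and phagocytosis receptors had 4 of 22 higher and 4 lower. Fcgr4, an activating receptor of immunoglobulin G, was at 27.0, 136 and 150 CPM. Monocyte transcription factors had 2 of 23 higher and 3 lower, near the shares over all genes tested, 7.18% higher and 8.92% lower. Irf8, which directs monocyte and dendritic cell fate, was at 290, 93.7 and 99.4 CPM, and Nr4a1, needed for nonclassical monocytes, at 1313, 812 and 568 CPM. Genes of monocytes that resemble dendritic cells had 1 of 7 higher and 6 lower, and other genes of the MHC class II pathway 0 of 5 higher and 3 lower. Cd74, the invariant chain that accompanies class II, was at 165, 10.2 and 55.05 CPM and was seen in 34 of 48, 25 of 261 and 136 of 401 members.

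**Figure D4:**
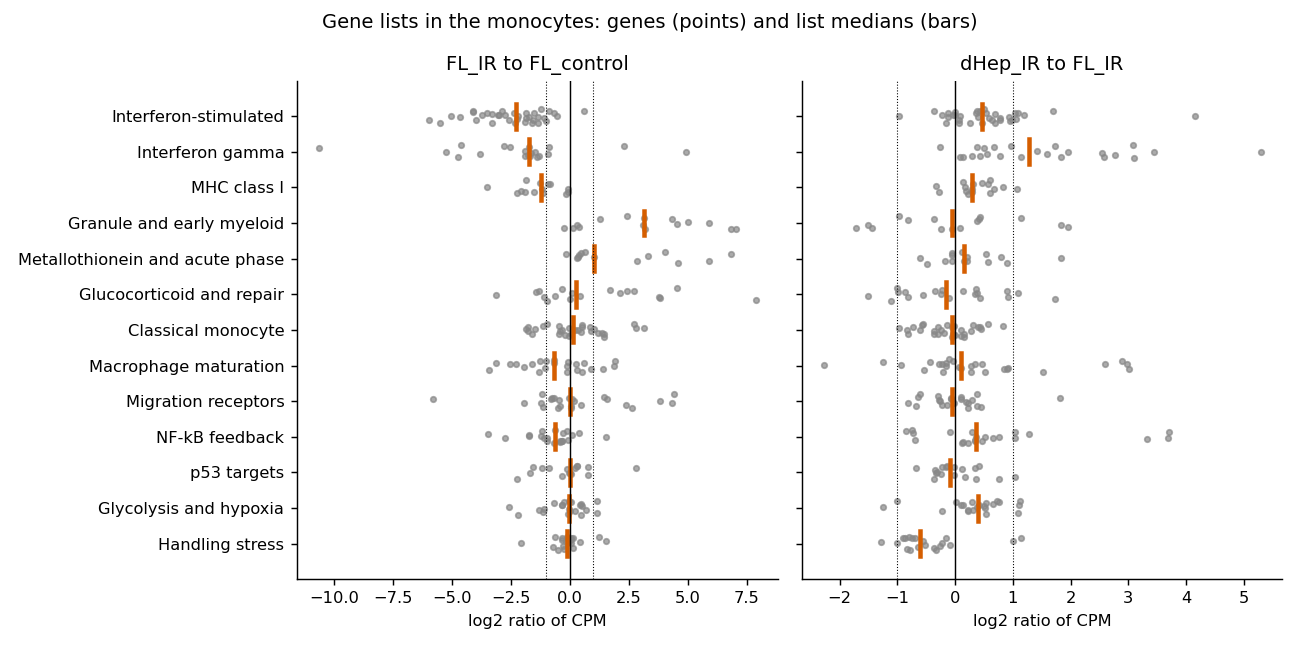
Log2 ratios of CPM (horizontal axis) for the tested genes (points) of 13 lists, with the list median as a bar, for FL_IR to FL_control (left) and dHep_IR to FL_IR (right); dotted lines mark 2-fold. On the left the interferon-stimulated median is -2.27 and the granule and early myeloid median 3.15, and on the right the interferon gamma median is 1.28.

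dHep_IR against FL_IR, both with more than 200 members, differs by genotype under irradiation, as labelled. Gsdmd itself was higher in dHep_IR, the library with the knockout label, with a log2 ratio to FL_IR of 2.55. In these values the labelled genotype and whatever goes with that difference cannot be told apart. Of 7499 genes tested, 236 were more than 2-fold higher in dHep_IR (3.15%) and 153 lower (2.04%), with a median log2 ratio of -0.04. These are the shares to set beside each list count of this step. Interferon gamma genes had 13 of 24 higher, none lower and a median of 1.28. Interferon-stimulated genes had 7 of 35 higher, none lower and a median of 0.47. Against FL_control, dHep_IR had 35 of 45 interferon-stimulated genes more than 2-fold lower and none higher, and 11 of 27 interferon gamma genes lower and 2 higher.

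Several of the higher interferon genes of dHep_IR were seen in a minority of its cells. Cxcl10, a chemokine induced by interferons, was at 319 CPM without irradiation, 12.02 CPM in FL_IR (95% interval 8.59 to 16.4) and 476 CPM in dHep_IR (460 to 493). It was seen in 17 of 48, 8 of 261 and 73 of 401 members, and 5 cells gave 84.7%, 92.5% and 46.1% of its UMIs. Rsad2, the antiviral enzyme viperin, was at 101, 2.10 and 42.3 CPM, and in dHep_IR 5 cells gave 66.4% of its UMIs. Ccl5, which attracts T cells and monocytes, was at 65.8, 12.6 and 268 CPM, and 1 cell gave 43.4% of its UMIs in dHep_IR. Gbp2 was seen in 18 members of FL_IR and 86 of dHep_IR. For Cxcl10, Rsad2, Ccl5 and Gbp2 the level was lowest in FL_IR.

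Saa3 was 3.59-fold higher in dHep_IR than in FL_IR (3.51 to 3.67). The thinned cells held a median of 0 UMIs of Saa3 in FL_control, 4 in FL_IR and 20 in dHep_IR, with maxima of 3, 71 and 229, so the ranges overlapped. Chil3 went the other way, with medians of 6.5, 68 and 35 UMIs. Sdc4, the heparan sulfate proteoglycan syndecan 4, was at 6.75, 73.6 and 459 CPM and was seen in 82 of 261 members of FL_IR and 322 of 401 of dHep_IR. C1qb, a complement subunit of macrophages, was at 15.2, 24.0 and 179 CPM. Acod1, which makes itaconate, was at 27.0, 3.30 and 78.5 CPM. Il1rn, the interleukin 1 receptor antagonist, was at 69.2, 15.02 and 73.6 CPM.

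Genes lower in dHep_IR included Flt3, a growth factor receptor of progenitors and dendritic cells, at 16.9, 112 and 16.6 CPM. Hopx was at 262, 790 and 256 CPM and Pira2, an activating immunoglobulin-like receptor, at 92.8, 550 and 172 CPM. Retnlg, a resistin-like protein of neutrophils, was at 3.37, 138 and 50.8 CPM. For Flt3 and Hopx, FL_control and dHep_IR lay close together and FL_IR stood alone. Apoe, the apolipoprotein of lipid-laden macrophages, was at 2059, 3830 and 1606 CPM. Handling stress genes had 2 of 20 tested higher and 1 lower, with a median of -0.60, and Fos was at 2027, 2104 and 1148 CPM. Hepatocyte genes had 9 of 14 tested lower. The part of handling stress, hepatocyte RNA and depth in these differences was not tested.

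Against FL_control, dHep_IR had 642 of 7492 tested genes more than 2-fold higher (8.57%) and 883 lower (11.8%), with a median of -0.15. TMM factors changed the split to 1055 higher and 486 lower and the median to 0.17. Il1r2, Saa3, Lcn2, Wfdc21, Mt1 and Mmp8 were all more than 2-fold above FL_control in dHep_IR, as in FL_IR.

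The members of each irradiated library also differed among themselves along a shared axis. The first principal component of the thinned, log-normalized counts held 1.34% of the variance in FL_IR and 2.01% in dHep_IR. Its high end was led in both libraries by S100a8, S100a9, Wfdc21, Lcn2 and Mmp8. Its low end was led by Apoe, Cxcl2, a neutrophil chemokine, Il1b, the inflammatory cytokine interleukin 1 beta, and Nfkbia, an inhibitor of NF-kB. Fos, Zfp36 and Ier3 ranked above Nfkbia in FL_IR and were among the 50 leading genes of that end in both libraries. Of the 50 leading genes at each end, 21 were shared between the libraries at the high end and 21 at the low end, and 0 stood at opposite ends. S100a8 and S100a9 were used by the rule and are given as a description. Spearman's rho between Il1b and Cxcl2 was 0.322 over 261 cells and 0.375 over 401 cells, and between Saa3 and S100a8 it was 0.141 and 0.0105. The cells of a correlation share 1 library.

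Nonclassical monocytes, 64, 13 and 207 cells in FL_control, FL_IR and dHep_IR, were the other monocyte population with enough cells in FL_control and dHep_IR to describe. Saa3 stood there at 9.01, 1164 and 6757 CPM and Lcn2 at 7.51, 1326 and 643 CPM. Interferon-stimulated genes had 16 of 19 tested more than 2-fold lower in FL_IR than in FL_control, with a median of -2.43, where 13.2% of all 2339 genes tested in that population were lower. From FL_IR to dHep_IR, 29 of 43 were higher with a median of 1.55, where 13.7% of all 5779 genes tested were higher. The inflammatory monocytes had 7 of 35 and a median of 0.47 in that step, against 3.15% of all genes. The 13 cells of FL_IR limit that comparison. In Kupffer cells the same step had a median of 0.08 and in neutrophils -0.14. Prtn3 was higher in the inflammatory monocytes than in neutrophils of all 3 libraries, where it stood at 6.75, 17.3 and 12.5 CPM. Whether the populations differ in their response could not be tested with 1 library per group.

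**Figure D5:**
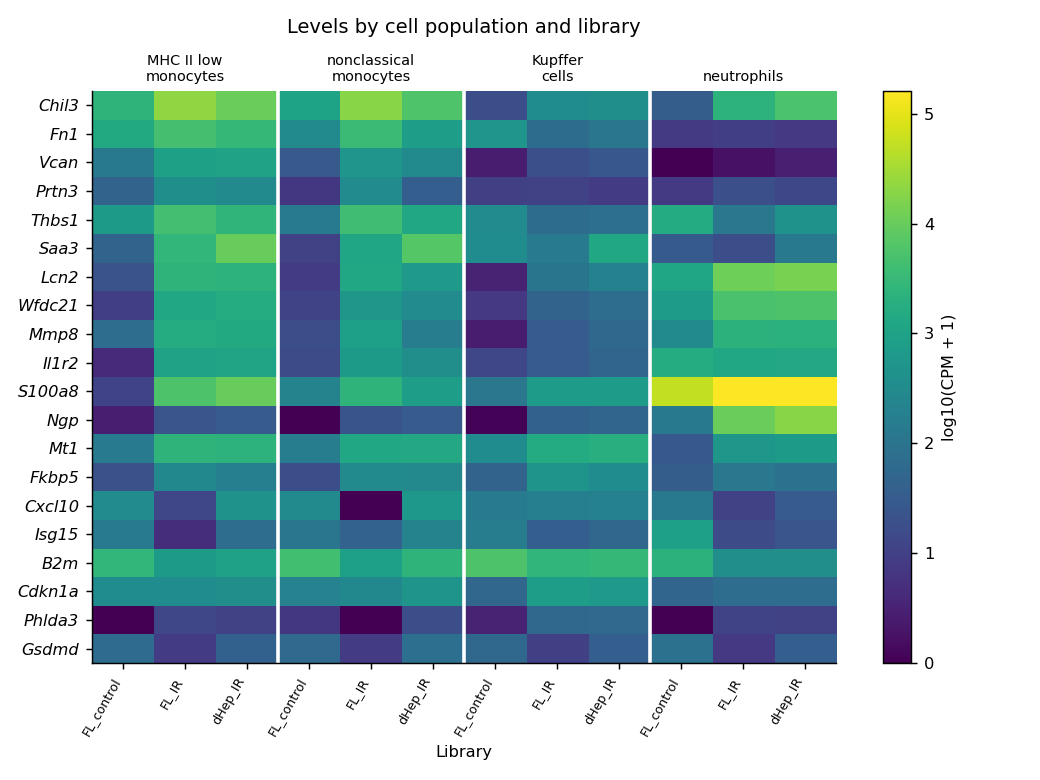
Levels as log10(CPM + 1) (colour) of 20 genes (rows) in 4 populations of the 3 libraries (columns). Chil3 is high in both monocyte populations of FL_IR, Ngp reaches 11062 CPM in neutrophils of FL_IR against 23.1 CPM in the MHC class II low monocytes, and Gsdmd is lowest in FL_IR in all 4 populations.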

How the data were processed

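Whole-liver libraries were made with droplet 3′ chemistry, per the labels' protocols. The authors deposited unnormalized UMI counts for 31253 genes in every barcode. Cell Ranger 6.1.1, CASAVA 1.8, Seurat 4.0.3 and the build mm10 are named in the submitters' processing notes. Free RNA was not removed here.

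Barcodes with at least 500 UMIs, 250 genes and at most 25% mitochondrial UMIs were kept. The rule was applied to raw counts, and UMIs were summed over members per library and expressed as CPM. Intervals are 95%: exact Poisson for levels, exact conditional for ratios, Clopper-Pearson for shares. Log2 ratios had a prior count of 0.5, and a library at 0 was set to 3 UMIs for a fold written as at least. Called means past 2-fold. Doublets were marked with Scrublet (scanpy 1.11.5, expected rate 6%; 3, 12 and 21 members) and kept. TMM factors came from edgeR 4.0.16 (R 4.3.3), used for scaling only. Calculations used Python 3.11.15 and scipy 1.17.1 and were tested on simulated counts.

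The members and the 32 gene lists were chosen with earlier results of these data known. Of 606 listed genes, 6 were not matched by symbol. Genes were named by rule: Gsdmd, the rule genes and the most abundant and most different members of each list. The 12 genes at each end of a comparison were also named, among those with at least 100 UMIs. Their level also had to reach 0.25 times the highest among nonclassical monocytes, Kupffer cells and neutrophils. Examples were chosen among these after their values were seen. Comparator populations were set by marker thresholds. Alternatives changed the cell filters, doublets, thresholds, depth, cell weights, scaling and count minimum.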

Additional observations from a re-analysis of the deposited data

How the results depend on the processing

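No paired analysis was possible because each group has 1 library. For the same reason no replicate could be left out. Over all alternatives, 3060 of 3588 gene ratios stayed within their counting interval, 521 moved out of it and 7 reversed. The settings differed: thinning to 3000 UMIs kept 133 of 299 gene ratios, moved 162 and reversed 4. TMM factors moved 101 of 299, as did S100a8 and S100a9 under 1%. The stricter filter on mitochondrial share moved 0, as did that on UMIs and genes. Neither could show much: the first left 48, 260 and 400 members and the second all 48, 261 and 401. Both settings are counted in the 3588. Of 1235 list medians 1186 stayed within 1.5-fold, 47 moved and 2 reversed. The cause was not tested except where a setting uses fewer UMIs or genes by construction.

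Thinning every cell to 3000 UMIs before the rule, which leaves fewer genes to test, gave 119 genes higher and 98 lower in FL_IR against FL_control, 91 and 84 in dHep_IR against FL_IR, and 243 and 182 in dHep_IR against FL_control. A minimum of 200 UMIs gave 180 and 137, 116 and 61, and 297 and 261. A minimum of 1 UMI gave 3090 and 3153, 2387 and 1657, and 3635 and 3357. A minimum of 20 UMIs gave 992 lower in the first comparison. TMM factors gave 361 lower there, and 1055 higher and 486 lower in dHep_IR against FL_control. The share of members was 1.02% in FL_control, 1.81% in FL_IR and 3.15% in dHep_IR after thinning, 2.57% and 4.22% in the irradiated libraries with Ly6c2 at 4 or more, and 2.98% and 3.05% with S100a8 and S100a9 under 1%.

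Reversals touched genes whose level in FL_control rested on few cells. Gpnmb in FL_IR against FL_control reached a log2 ratio of 2.37 with Ly6c2 at 4 or more and 3.96 after thinning, and in dHep_IR against FL_control 2.46 and 3.82. Spp1 in dHep_IR against FL_control reached 7.54 and 5.73. Stmn1 in FL_IR against FL_control reached 1.91 after thinning. The endothelial list median became 0.053 in FL_IR against FL_control without members carrying endothelial or lymphoid RNA, an alternative chosen after seeing the data, and 0.51 in dHep_IR against FL_control without Scrublet doublets.

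Depth limits FL_control most, with 48 members and 592604 UMIs.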

Other observations

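Glycolysis and hypoxia genes had 3 of 22 tested more than 2-fold higher and 1 lower in dHep_IR against FL_IR. The median log2 ratio was 0.40, and of all genes tested 3.15% were higher and 2.04% lower. In FL_IR against FL_control 2 of 22 were higher and 5 lower, with a median of -0.03. Of all genes tested there, 7.18% were higher and 8.92% lower. Per cell thinned to 3000 UMIs the list held medians of 10.5 UMIs in FL_control, 14 in FL_IR and 18 in dHep_IR. Gapdh, a glycolytic enzyme, was at 928, 1347 and 1905 CPM, and Hilpda, a lipid droplet protein induced in hypoxia, at 48.9, 81.1 and 177 CPM. Hk2, a hexokinase, went the other way between FL_control and the irradiated libraries at 77.6, 13.2 and 28.9 CPM.

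Coagulation and complement genes had 4 of 12 tested more than 2-fold higher in FL_IR against FL_control and none lower. Of all genes tested there, 7.18% were higher and 8.92% lower. F13a1, the A chain of clotting factor XIII, was at 607, 1411 and 1094 CPM, and C5ar1, the receptor of the complement fragment C5a, at 57.4, 175 and 204 CPM. Proliferation genes had 6 of 12 tested more than 2-fold higher in dHep_IR against FL_IR and none lower. Of all genes tested in that step, 3.15% were higher and 2.04% lower. Ccnb2, a mitotic cyclin, had 0, 1 and 149 UMIs, the last from 62 cells. It was seen in 0.383% of members of FL_IR and 15.5% of dHep_IR, so it reached testing only through dHep_IR. Per cell thinned to 3000 UMIs the proliferation list had a median of 3 UMIs in each of the 3 libraries and maxima of 40, 10 and 46, so the typical cell held as many in each and the highest cells differed.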
